A study of Mus musculus with 6 samples.

Results

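The genes described here are 10 transcripts of the antibody-secreting cell program that lie outside the immunoglobulin loci: Jchain, Mzb1, Pou2af1, Derl3, Tnfrsf17, Tent5c, Prdm1, Irf4, Xbp1 and Sdc1. They were chosen by gene name, and all 10 were among the 33679 genes of the deposited table. By textbook expression, 5 members were treated as largely restricted to plasma cells or to the B lineage and other secretory cells (Jchain, Mzb1, Pou2af1, Derl3 and Tnfrsf17) and 5 as more broadly expressed (Tent5c, Prdm1, Irf4, Xbp1 and Sdc1). RNA came from mouse kidneys after unilateral ureteral obstruction, a model of scarring made by tying a ureter. The labels give the genotypes Cd248 KO and wild type, 3 samples each, with obstruction in both groups and no unobstructed kidney. Values were used for 4 libraries, Cd248 KO replicate 1 and wild type replicates 1, 2 and 3, and the other knockout samples were not analysed here. The sources used here give no strain, age, time after surgery or tissue restriction of the knockout, and the library protocol speaks of pooled RNA. Nothing says that replicates came from separate animals, so p-values reflect the spread between libraries alone, and that spread may be technical.

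Plasma cells arise when a B cell stops its own identity program and turns to antibody secretion. Irf4 and Prdm1 (Blimp-1) are transcription factors of that switch, and Xbp1, activated in the unfolded protein response, enlarges the secretory pathway. Pou2af1 (OCA-B) is a coactivator of the octamer-binding factors at immunoglobulin promoters. Mzb1 and Derl3 act in the endoplasmic reticulum, in folding and in the disposal of misfolded proteins, and Jchain joins IgA and IgM into multimers. Tnfrsf17 (BCMA) is a survival receptor for the cytokines BAFF and APRIL, Tent5c is a poly(A) polymerase that lengthens the tails of secretory transcripts, and Sdc1 (CD138) is the surface proteoglycan by which plasma cells are often sorted. Irf4 and Prdm1 are also used by T cells and myeloid cells, and Xbp1 and Sdc1 by epithelia, including those of the kidney.

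The promoter windows of the 4 restricted members with an entry are shown, to set them beside textbook motifs of the unfolded protein response and of the B lineage. The RefSeq promoter table (build GRCm38.p6) had an entry for 9 of the 10 members. Each window is the 250 bases before the RefSeq transcription start, written in the direction of the gene: chr5:88527898-88528147 on the minus strand for Jchain, and, on the plus strand, chr9:51213440-51213689 for Pou2af1, chr10:75893148-75893397 for Derl3 and chr16:11313559-11313808 for Tnfrsf17. Capitals mark matches, on either strand, to the motifs searched.
Jchain: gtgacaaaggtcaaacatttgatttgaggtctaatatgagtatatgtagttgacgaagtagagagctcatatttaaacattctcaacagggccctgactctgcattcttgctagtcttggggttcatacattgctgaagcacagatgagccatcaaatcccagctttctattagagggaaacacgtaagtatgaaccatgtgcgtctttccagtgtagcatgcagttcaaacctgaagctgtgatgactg
Pou2af1: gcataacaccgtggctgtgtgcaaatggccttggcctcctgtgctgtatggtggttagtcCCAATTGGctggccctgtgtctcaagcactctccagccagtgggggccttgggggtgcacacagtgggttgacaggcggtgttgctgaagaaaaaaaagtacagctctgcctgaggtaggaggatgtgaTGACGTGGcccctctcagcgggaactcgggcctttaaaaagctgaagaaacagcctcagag
Derl3: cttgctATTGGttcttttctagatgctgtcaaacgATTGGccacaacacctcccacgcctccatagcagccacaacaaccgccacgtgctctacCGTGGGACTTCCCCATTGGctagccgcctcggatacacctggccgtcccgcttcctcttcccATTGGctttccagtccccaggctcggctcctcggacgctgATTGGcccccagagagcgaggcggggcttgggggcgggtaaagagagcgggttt
Tnfrsf17: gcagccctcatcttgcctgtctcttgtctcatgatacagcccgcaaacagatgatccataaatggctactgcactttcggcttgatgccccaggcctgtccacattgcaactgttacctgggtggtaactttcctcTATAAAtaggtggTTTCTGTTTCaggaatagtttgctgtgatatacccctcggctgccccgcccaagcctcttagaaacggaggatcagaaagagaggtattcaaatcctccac
The window of Pou2af1 held the unfolded protein response element TGACGTGG 61 bases before the start, a match found in 0.563% of the 32851 promoter windows of the table. The window of Derl3 held the endoplasmic reticulum stress element (CCAAT, 9 bases of any kind, CCACG) on the reverse strand, beginning 156 bases before the start, and 0.113% of all windows held it. Derl3 also had 5 CCAAT boxes, all on the reverse strand and 1 of them inside that element, and 0.213% of all windows had at least as many. Pou2af1 had 2 overlapping CCAAT boxes, and a CCAAT box was present in 33.8% of all windows. Tnfrsf17 held a TATAAA match (12.4% of windows) and, just after it, the interferon-stimulated element (GAAA, 2 bases of any kind, GAAA) on the reverse strand (2.98% of windows). The octamer ATTTGCAT (1.6% of windows) and the Ets-IRF element (GGAA, 2 bases of any kind, GAAA; 2.3% of windows) were found in 0 of the 9 member windows, and the window of Jchain held no match to any motif searched. A match is a run of letters and no evidence of binding.

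Cd248, the gene named in the knockout, was listed at 0 FPKM in the Cd248 KO library and at 8.78 to 9.57 FPKM in the wild type libraries. FPKM scales fragment counts by transcript length and library size, so levels of different genes can be set side by side. Umod, the uromodulin of the loop of Henle, named after its values were seen, was at 340.4 to 640.2 FPKM over the 4 libraries. Immunoglobulin genes held 5.98% of the FPKM total in the Cd248 KO library and 0.113% to 0.202% in the wild type libraries. Read depth is unknown. Differences are given on the log2(FPKM + 1) scale, which understates the change of low genes, and a call means an adjusted p under 0.05 in limma's moderated linear model over 16871 tested genes. The knockout arm is 1 library, so its spread is assumed to equal that of the wild type libraries. In bulk tissue, more cells of a type and more RNA per cell cannot be told apart.

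The plasma-cell-restricted members were all at least 7 times their wild type level in the Cd248 KO library, with the exception of Tnfrsf17, for which no fold is given. All 10 members were measured, and 9 reached the level needed for a test, a mean of at least 0.5 FPKM; the same 9 also reached it on the wild type libraries alone. Of these 9, 5 rose (Jchain, Mzb1, Pou2af1, Derl3 and Tent5c), 0 fell and 4 did not pass, where 0.640% of all tested genes rose, 0.0830% fell and 0.723% did either. Outside the immunoglobulin loci, 0.0599% of tested genes rose, and the 5 members made up 5 of those 10 genes. These counts depended on the fit: with immunoglobulin genes left out, 3 members rose with rescaling and 1 without, of 5 and 1 genes in all, and without 1 wild type library 1 to 2 members rose. In the Cd248 KO library, 8 of the 9 tested members lay above every wild type library and Sdc1 lay below every one, where 28.0% and 31.2% of tested genes did so.

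**Figure D1:**
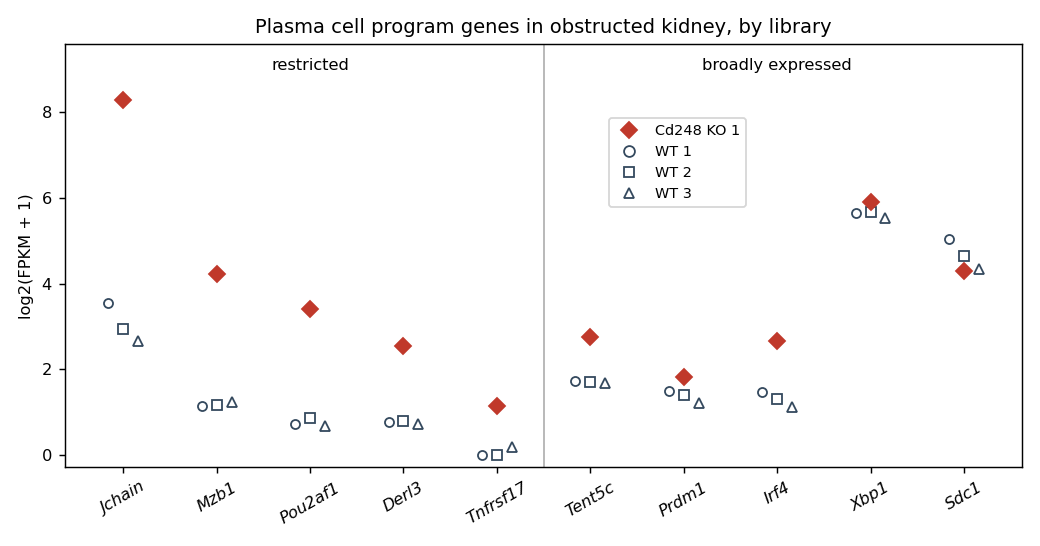
Level of each plasma cell program gene, as log2(FPKM + 1), in the Cd248 KO library (red diamonds) and in wild type replicates 1, 2 and 3 (open circles, squares and triangles). The restricted genes on the left show a wide gap between the red diamond and the wild type symbols. The gap narrows for Prdm1 and Xbp1 on the right, where the red diamond is still the highest symbol. For Sdc1 the red diamond is the lowest.

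Jchain (ENSMUSG00000067149; mm10, chromosome 5, 88519809 to 88527891, minus strand) was at 309.8 FPKM in the Cd248 KO library, and wild type replicates 1, 2 and 3 had 10.7, 6.60 and 5.29 FPKM. The knockout value stood far above all wild type values, which themselves differed among each other more than those of any other called member. The difference was 5.24 (SE 0.37, adjusted p = 0.0195), the largest of all 16695 tested genes outside the immunoglobulin loci. Without wild type replicate 2 or 3 the adjusted p was 0.0987 or 0.119.

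Mzb1 (ENSMUSG00000024353), the endoplasmic reticulum co-chaperone of antibody-secreting cells, was at 17.6 FPKM against 1.20, 1.24 and 1.35 FPKM. The wild type libraries hardly differed (1.26 ± 0.08 FPKM, SD, n = 3), and the knockout library was 13.9 times their mean. The difference was 3.04 (SE 0.10, adjusted p = 0.0034). It was the only member called in each of the 11 alternative fits, with adjusted p between 0.0015 and 0.0423.

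Pou2af1 (ENSMUSG00000032053; chromosome 9, 51213708 to 51240080, plus strand) was at 9.56 FPKM in the Cd248 KO library, against 0.65, 0.80 and 0.58 FPKM in wild type. Its fold over the wild type mean, 14.1, was close to that of Mzb1, although its wild type level was lower. The difference was 2.66 (SE 0.13, adjusted p = 0.0090), and the call was lost on leaving out wild type replicate 1 (adjusted p = 0.0866) or 3 (0.0738).

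Derl3 (ENSMUSG00000009092; chromosome 10, 75893413 to 75895941, plus strand), a derlin of the pathway that moves misfolded proteins out of the endoplasmic reticulum, was at 4.82 FPKM against 0.69, 0.73 and 0.63 FPKM. The knockout value was 7.05 times the wild type mean, and the wild type values lay within 0.1 FPKM of each other. The difference was 1.79 (SE 0.12, adjusted p = 0.0166). Leaving out any 1 wild type library raised the adjusted p to between 0.0852 and 0.122.

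Tnfrsf17 (ENSMUSG00000022496; chromosome 16, 11313812 to 11320074, plus strand) was at 1.19 FPKM in the Cd248 KO library, was listed at 0 in wild type replicates 1 and 2 and was at 0.13 FPKM in replicate 3. It was the lowest member in every library and fell short of the level needed for a test. With no filter on low genes the difference of 1.07 had an adjusted p of 0.0953. Values this low may be failed estimates, so no fold is given.

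The broadly expressed members differed less, and 1 of the 5 passed. At an unadjusted p under 0.05 in limma's fit there were 4 of the 5, all but Sdc1, where 10.8% of all tested genes had one. Tent5c (ENSMUSG00000044468; chromosome 3, 100451628 to 100489324, minus strand) was at 5.78 FPKM against 2.30, 2.27 and 2.18 FPKM. The wild type values were tight (SD 0.06 FPKM, n = 3), and the knockout library was 2.57 times their mean. The difference was 1.06 (SE 0.10, adjusted p = 0.0407), close to the threshold, and it was called in 2 of 11 alternative fits. Without 1 wild type library the adjusted p of Tent5c was 0.195 to 0.232.

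Irf4 (ENSMUSG00000021356; chromosome 13, 30749226 to 30766976, plus strand) was at 5.27 FPKM in the Cd248 KO library and at 1.78, 1.45 and 1.15 FPKM in the wild type libraries. Its fold of 3.61 was larger than that of Tent5c, but its wild type libraries spread more (SD 0.32 FPKM, n = 3). The difference was 1.36 (SE 0.18) and did not pass (adjusted p = 0.116, and between 0.0883 and 0.406 over the alternatives).

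Prdm1 (ENSMUSG00000038151; chromosome 10, 44437177 to 44528501, minus strand) was at 2.51 FPKM against 1.82, 1.63 and 1.32 FPKM. The knockout value was the highest of the 4, at 1.58 times the wild type mean, and the difference of 0.44 (SE 0.15) did not pass (adjusted p = 0.443).

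Xbp1 (ENSMUSG00000020484; chromosome 11, 5520659 to 5525893, plus strand) was the highest member in every wild type library, at 49.3, 50.3 and 44.9 FPKM, and was at 59.0 FPKM in the Cd248 KO library. The difference was 0.29 (SE 0.10, adjusted p = 0.452). In linear units its gain over the wild type mean was 10.9 FPKM, at a fold of 1.23. This gain was of the same order as the 16.3 FPKM of Mzb1 and the 8.88 FPKM of Pou2af1. It depended more on scaling: with libraries brought to the same FPKM total the log2 difference of Xbp1 was 0.16. Under that scaling Mzb1 had 2.93 and Pou2af1 2.55. The table gives gene levels only, so the spliced, active form of the Xbp1 transcript was not separated.

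Sdc1 (ENSMUSG00000020592; chromosome 12, 8771323 to 8793715, plus strand) was at 18.5 FPKM in the Cd248 KO library, where wild type replicates 1, 2 and 3 had 32.1, 24.0 and 19.2 FPKM. The knockout value was the lowest of the 4 but close to that of wild type replicate 3, and the difference of -0.39 (SE 0.29) did not pass (adjusted p = 0.680). Of 6 urothelium and 11 epithelial markers, 0 passed in limma's fit, with 0 and 1 at an unadjusted p under 0.05, where 10.8% of all tested genes had one. The summed level of 6 urothelium markers was 24.9 FPKM in the Cd248 KO library and 76.5, 79.4 and 27.2 FPKM in the wild type libraries, where 5 of 6 lay under the whole wild type range (31.2% of all tested genes did) and Upk2, a uroplakin of the urothelial plaque, listed at 0 in the Cd248 KO library. Of the 11 epithelial markers, 3 lay below every wild type library and 8 inside the wild type range, with differences from -1.58 to 0.68. Krt19, a keratin of simple epithelium named after its values were seen because it was the lowest, was at 15.9 against 60.5, 63.8 and 31.2 FPKM (adjusted p = 0.382). Their part in the values of Sdc1 was not tested.

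**Figure D2:**
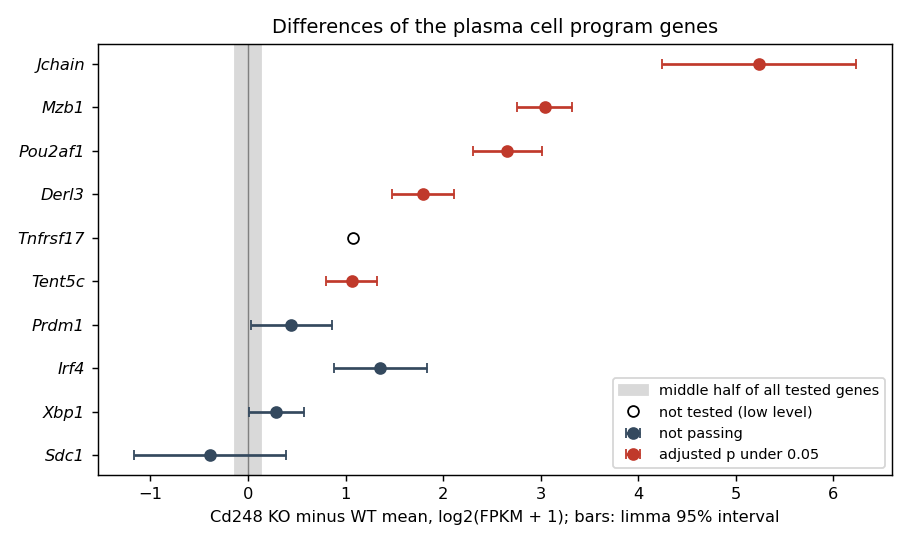
Difference of each member between the Cd248 KO library and the wild type mean on the log2(FPKM + 1) scale, with limma's 95% interval; red marks an adjusted p under 0.05 and the open circle marks Tnfrsf17, which was not tested. The grey band is the middle 50% of all tested genes, from -0.13 to 0.13, and the red points lie between 1.06 and 5.24.

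Set side by side, the 4 tested restricted members were all called, with a median difference of 2.85 and a range of 1.79 to 5.24. The 5 broadly expressed members had a median of 0.44 and a range of -0.39 to 1.36, against a median of -0.01 over all tested genes. Summed over its 5 genes, the restricted group stood at 343 FPKM in the Cd248 KO library, against wild type sums of 13.3, 9.37 and 7.98 FPKM. The broad group stood at 91.1 FPKM against 87.3, 79.6 and 68.8 FPKM, with Xbp1 and Sdc1 making up most of it. The 2 groups were thus ordered oppositely: broad members held more of the summed level in each wild type library, and restricted members, through Jchain, held more in the Cd248 KO library.

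The proportions among the transcripts differed between the libraries for some members and not for others. The summed immunoglobulin level per unit of Jchain was 58.8 in the Cd248 KO library and 50.3, 69.5 and 60.8 in the wild type libraries, so the knockout value lay inside the wild type range. Pou2af1 per unit of Mzb1 was likewise inside it, at 0.543 against 0.542, 0.645 and 0.430. Jchain per unit of Mzb1 was 17.6 against 8.93, 5.32 and 3.92, above every wild type library and 2.91 times their mean. The summed immunoglobulin level per unit of Mzb1 was 1035 against 449, 370 and 238, also above every wild type library and 2.94 times their mean. Derl3 per unit of Mzb1 was 0.274 against 0.575, 0.589 and 0.467, below every one. For Tent5c, Irf4, Prdm1, Xbp1 and Sdc1 the same ratio was 5.44, 3.90, 8.90, 11.4 and 19.1 times lower in the Cd248 KO library than the wild type mean. These values restate the rise of Mzb1 beside the smaller differences of the broadly expressed members given above, and are no separate result. An exact permutation test of each ratio outside the wild type range gave p = 0.25, the smallest that 1 library against 3 allows, and these ratios do not change with any scaling of whole libraries.

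Jchain joins the products of Igha and Ighm. Igha, the heavy chain constant region of IgA, was at 1042 FPKM against 35.1, 25.1 and 13.7 FPKM (difference 5.44, adjusted p = 0.0457), and Ighm, that of IgM, at 95.7 against 19.8, 21.2 and 15.3 FPKM (2.30, adjusted p = 0.0332). Both calls were lost on dropping any 1 wild type library, with an adjusted p of 0.0792 to 0.196 for Igha and of 0.0662 to 0.235 for Ighm. Igha per unit of Ighm was 10.9 in the Cd248 KO library and 1.78, 1.19 and 0.896 in the wild type libraries. Jchain per unit of Igha and Ighm together was 0.272 against 0.195, 0.143 and 0.182, which is 1.57 times the wild type mean. Igkc, the kappa light chain constant region, was at 4153 against 119, 89.2 and 61.7 FPKM, and Iglc1, a lambda constant region, at 203 against 2.90, 2.25 and 2.10 FPKM. The call of Igkc (adjusted p = 0.0190) was also lost without any 1 wild type library (0.0738 to 0.106) and with no filter (0.0832). Of 9 constant region genes whose wild type mean alone reached the level tested, 8 rose, where 0.640% of all tested genes did; Ighg1 and Ighg3, which reached it through the knockout library only, are left out of this count. Ighd, the IgD constant region carried by naive B cells, lay inside the wild type range at 1.35 FPKM. Constant region genes of a class resemble each other, so reads may be split among them.

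**Figure D3:**
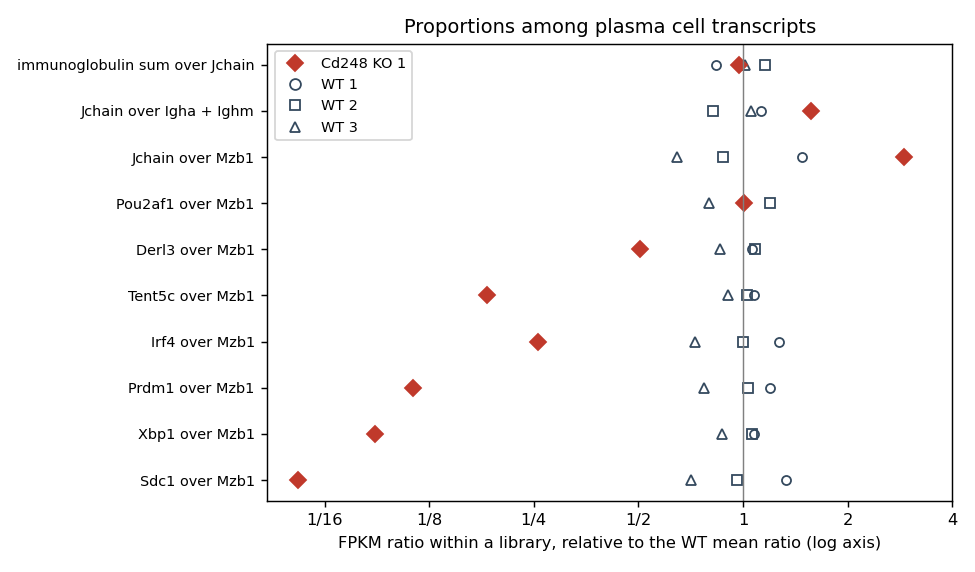
FPKM ratios within each library, divided by the mean of the wild type ratios, on a log axis, for the Cd248 KO library (red diamonds) and wild type replicates 1, 2 and 3 (open symbols). The ratios of total immunoglobulin to Jchain and of Pou2af1 to Mzb1 lie among the wild type symbols, Jchain to Mzb1 lies to the right at 2.91, and the broadly expressed members lie to the left.

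Jchain and Mzb1 aside, each called member was compared with the relatives in its gene family, none of which was called in the fit used here or under any of 3 other scalings of the libraries. Derl3 rose, and Derl1 and Derl2, the broadly expressed derlins, were at 28.2 against 26.8 ± 0.95 FPKM and at 6.20 against 6.05 ± 0.31 FPKM (SD, n = 3; adjusted p = 0.798 and 0.926), with signs that changed with the scaling. The level of Derl3 per unit of Derl1 was 0.171 in the Cd248 KO library and 0.0268, 0.0267 and 0.0230 in the wild type libraries. Pou2af1 rose, and its DNA-binding partners Pou2f1 (Oct-1) and Pou2f2 (Oct-2) were at 3.22 against 2.85 ± 0.27 FPKM and at 2.05 against 1.89 ± 0.11 FPKM (adjusted p = 0.729 and 0.830, with the sign of Pou2f2 changing with the scaling). Pou2f3 was at 0.04 FPKM in the Cd248 KO library and at 0.16 FPKM or less in each wild type library, and was not tested. Derl3 and Tent5c lost their calls with the immunoglobulin genes left out and the libraries rescaled, and Tent5c also with libraries brought to the same FPKM total (adjusted p = 0.0720), which moved the median of all genes from -0.01 to -0.11.

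Among the TENT5 polymerases, Tent5a was at 5.80 against 7.04 ± 0.62 FPKM and Tent5b at 0.73 against 2.04 ± 0.32 FPKM, both below every wild type library (adjusted p = 0.566 and 0.262), and Tent5d was listed at 0 except in wild type replicate 1, at 0.02 FPKM. The 8 other interferon regulatory factors had differences between -0.69 and 0.20 beside the 1.36 of Irf4, and 0 of the 9 passed in limma's fit, with 2 at an unadjusted p under 0.05 (10.8% of all tested genes); the signs of 4 of the 9 changed with the scaling. The lowest was Irf7, a factor of the type I interferon response, at 9.66 against 16.3 ± 1.28 FPKM (adjusted p = 0.192). Of 12 PRDM genes in the table, 9 were tested and 0 passed in limma's fit, with 1, Prdm1 itself, at an unadjusted p under 0.05 (10.8% of all tested genes). Prdm1 had the largest difference, with the others between -0.18 and 0.19. Among the syndecans, Sdc2 and Sdc3, the mesenchymal and neural forms, were at 23.4 against 28.2 ± 2.11 FPKM and at 18.4 against 25.1 ± 2.24 FPKM, and Sdc4 at 84.1 against 82.0 ± 10.4 FPKM (adjusted p = 0.525, 0.397 and 0.944, with the sign of Sdc4 changing with the scaling). The other receptors of BAFF and APRIL were Tnfrsf13b (TACI), at 5.28 against 2.78 ± 0.40 FPKM (adjusted p = 0.270), and Tnfrsf13c (BAFF receptor), at 0.67 against 0.09, 0.13 and 0.04 FPKM, which was not tested.

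**Figure D4:**
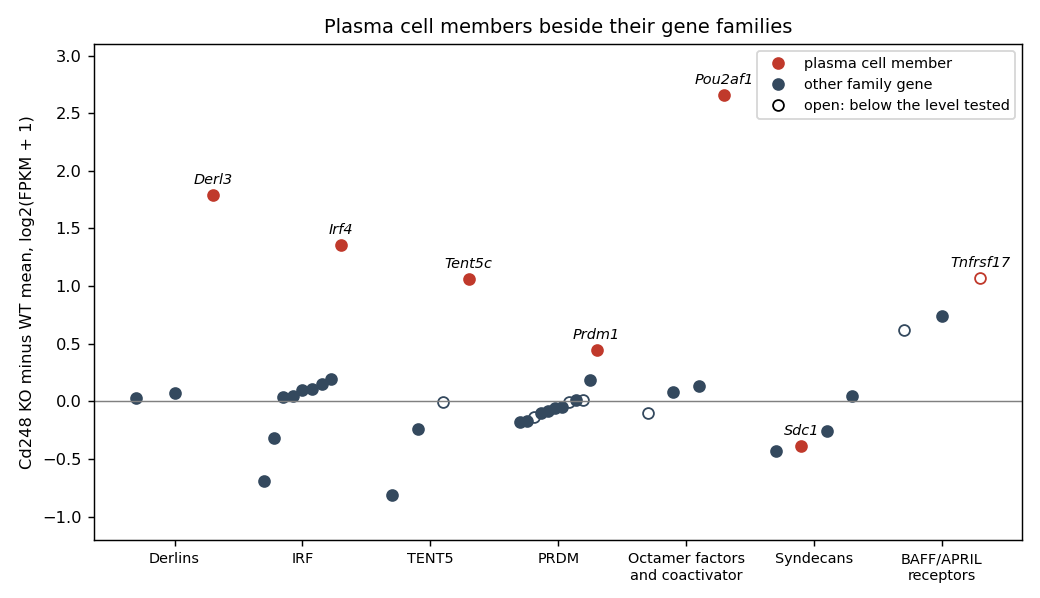
Difference between the Cd248 KO library and the wild type mean, on the log2(FPKM + 1) scale, for the genes of 7 families; plasma cell members are red and named, their relatives are dark, and open circles were below the level tested. Pou2af1, Derl3, Irf4, Tent5c, Prdm1 and Tnfrsf17 are the highest points of their families, and Sdc1 is not.

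Other genes of antibody-secreting cells lay mostly above the wild type libraries, with a median difference of 0.34 over those tested. Of 24 such genes, 22 were tested, 1 rose, 0 fell and 21 did not pass, where 0.640% of tested genes rose. At an unadjusted p under 0.05, counted in either direction, there were 12 of the 22, where 10.8% of all tested genes had one. Among the 21 whose wild type mean alone reached the level tested, there were 11. Both counts include Cxcr4 and Cd38, which lay below every wild type library. The gene that rose was Ly6c2, a surface antigen of plasma cells and of monocytes, at 7.44 against 2.52, 2.56 and 2.35 FPKM (1.28, adjusted p = 0.0275, and 0.144 to 0.155 without 1 wild type library). Of those 21, 16 lay above every wild type library, where 28.0% of tested genes did, and their median difference was 0.33. Ell2, an elongation factor of immunoglobulin transcripts, was at 4.63 against 3.75 ± 0.15 FPKM. Lax1, a membrane adaptor of lymphocytes, was at 6.02 against 2.05 ± 0.59 FPKM (adjusted p = 0.488 and 0.254). Eaf2, a partner of Ell2, was at 0.98 against 0.53 ± 0.11 FPKM, and Pim2, a survival kinase, at 2.49 against 2.12 ± 0.19 FPKM. Ccr10 and Bhlha15, low genes named after their values were seen, had larger folds. Ccr10 was at 1.53 against 0.42, 0.56 and 0.42 FPKM, and Bhlha15 at 0.91 against 0.11, 0.20 and 0.07 FPKM. Ccr10 reached the level tested through the knockout library only, and Bhlha15 did not reach it. Cxcr4, the receptor that holds plasma cells in bone marrow and is also carried by other leukocytes, was chosen after its values were seen and was at 8.21 against 18.6, 13.5 and 14.3 FPKM (adjusted p = 0.315). Cd38, also named after its values were seen, was at 6.64 against 11.3, 8.58 and 9.75 FPKM. In all, 3 of the 22 lay below every wild type library, where 31.2% of all tested genes did.

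Many genes of the secretory machinery are known targets of Xbp1. Of 40 genes of translocation, folding, glycosylation and vesicle transport, 0 passed in limma's fit in either direction and 4 had an unadjusted p under 0.05, near the 10.8% of all tested genes, with differences from -0.40 to 0.47 and a median of -0.03, against -0.01 for all tested genes. In the Cd248 KO library 7 lay above every wild type library and 13 below every one, where 28.0% and 31.2% of all tested genes did, and the signs of 13 of the 40 changed with the scaling. Sec61a1, the channel of the translocon, was at 24.4 against 26.3 ± 1.96 FPKM, Sec61b at 26.8 against 27.6 ± 3.36 FPKM, Sec61g at 9.23 against 9.73 ± 0.67 FPKM and Ssr1 at 12.8 against 13.3 ± 0.76 FPKM. The 2 largest positive differences, named after their values were seen, were those of Sdf2l1, a co-chaperone (11.1 against 7.77 ± 0.32 FPKM, adjusted p = 0.260), and Edem1, which marks misfolded glycoproteins for disposal (19.6 against 14.6 ± 0.53 FPKM, adjusted p = 0.287). Of 8 tested sensors and targets of the unfolded protein response, 0 passed in limma's fit and 0 had an unadjusted p under 0.05. Ern1 (IRE1), which splices Xbp1, was at 6.26 against 6.40 ± 0.38 FPKM.

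Markers of B cells and other immune cells differed as follows. Of 20 B cell genes, 12 were tested and 1 rose, Cd79a, a signalling chain of the B cell receptor, at 6.69 against 1.34, 1.13 and 0.83 FPKM (1.88, adjusted p = 0.0422, and 0.134 to 0.196 without 1 wild type library). Of the 10 whose wild type mean alone reached the level tested, 7 lay above every wild type library (28.0% of all tested genes did), 4 had an unadjusted p under 0.05 (10.8% of all tested genes) and the median difference was 0.31. Ms4a1 (CD20) was at 0.50 against 0.22, 0.20 and 0.11 FPKM, and Pax5, the factor that holds B cell identity, at 0.15 against 0.07, 0.16 and 0.04 FPKM; both were below the level tested.

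Cells that share Irf4 and Prdm1 with plasma cells were also followed. The summed level of 13 T and NK cell markers was 35.4 FPKM in the Cd248 KO library and 27.6, 22.03 and 18.5 FPKM in the wild type libraries, and 8 of 9 tested markers lay above every wild type library (28.0% of all tested genes did), with 0 called by limma and 5 at an unadjusted p under 0.05 (10.8% of all tested genes). Cd3e, a chain of the T cell receptor complex, was at 1.88 against 1.84, 1.0 and 0.70 FPKM. Dendritic cell markers summed to 97.3 against 113, 101 and 93.9 FPKM, and macrophage markers to 1242 against 1273, 861 and 1341 FPKM, both inside the wild type range. In the Cd248 KO library Bst2 (50.6 FPKM) and Lyz2 (662 FPKM) made up most of these sums. Of 11 tested dendritic cell markers, 5 lay above every wild type library and 2 below every one. Of 10 macrophage markers, 2 lay above and 0 below, where 28.0% and 31.2% of all tested genes did. The part of T cells and B cells in the values of Irf4, Prdm1 and Tent5c was not tested.

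Factors that sustain plasma cells or carry their product did not pass in any case (0 of 9 tested in limma's fit). Of the 8 whose wild type mean alone reached the level tested, 1 had an unadjusted p under 0.05 in that fit, where 10.8% of all tested genes had one. Tnfsf13b (BAFF) was at 2.38 against 2.80 ± 0.22 FPKM, Tnfsf13 (APRIL) at 2.26 against 2.37 ± 0.58 FPKM and Cxcl12 at 11.6 against 16.9 ± 5.10 FPKM. Pigr, the epithelial receptor that carries Jchain-containing IgA and IgM into the lumen, named after its values were seen, was at 25.7 against 28.0 ± 3.58 FPKM (adjusted p = 0.836). Named after its values were seen, Cxcl13, the chemokine that attracts B cells, was at 1.69 against 0.36, 0.22 and 0.04 FPKM (adjusted p = 0.225). Cxcl13 reached the level tested through the knockout library only.

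**Figure D5:**
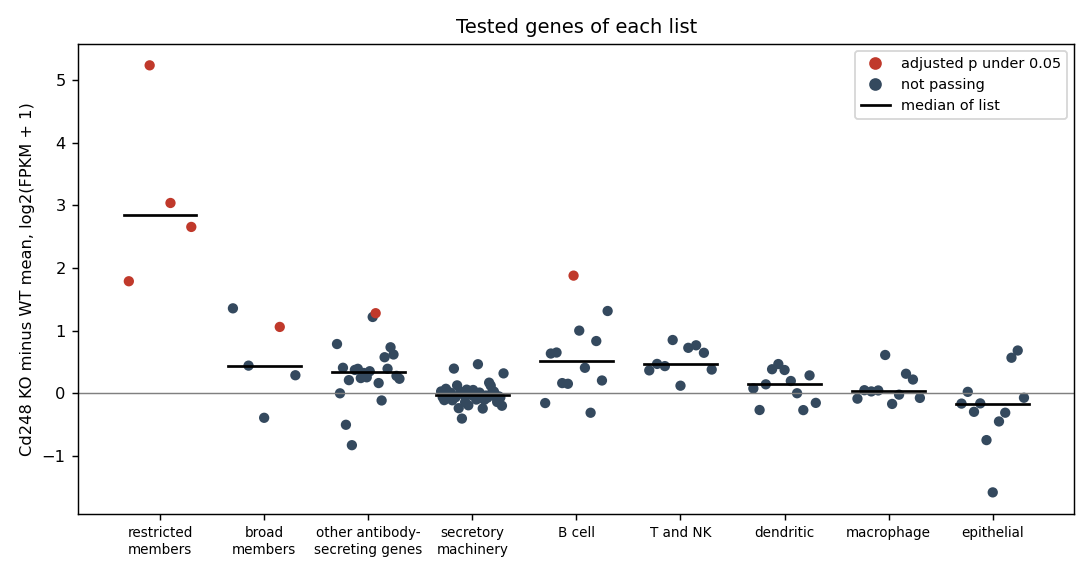
Difference between the Cd248 KO library and the wild type mean, on the log2(FPKM + 1) scale, for the tested genes of 9 lists; red points had an adjusted p under 0.05 and black lines are list medians. The restricted members reach 5.24, the secretory machinery stays between -0.40 and 0.47, and the median of the T and NK list is 0.47.

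The genes outside the immunoglobulin loci whose 4 values lay nearest to the mean profile of the restricted members, by Euclidean distance of log2(FPKM + 1) values from their wild type mean, were a second gene model of Nnt (distance 0.34), Cd79a (0.89), Gm49909 (1.06), Slpi (1.11) and Gm14434 (1.22). The Nnt model (ENSMUSG00000116207) and Gm49909 were at 4.42 and 2.25 FPKM in the Cd248 KO library and at 0 in each wild type library as listed, so they match in the size of the step and share no measured wild type variation. Slpi, a secreted protease inhibitor of epithelia and leukocytes, was at 60.2 against 2.85, 4.26 and 3.21 FPKM. With 1 knockout library, likeness over 4 values rests mainly on that library.

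The wild type libraries also differed from each other. Jchain, Tent5c, Prdm1, Irf4 and Sdc1 were highest in wild type replicate 1 and lowest in replicate 3, the same order as the immunoglobulin share of 0.202%, 0.164% and 0.113%, and 29.0% of all tested genes had this order. Mzb1, Pou2af1, Derl3, Tnfrsf17 and Xbp1 had other orders. In the authors' deposited table, Jchain, Mzb1, Pou2af1, Derl3, Tent5c and Irf4 were marked as significant and higher, where 0.285% of all genes were, and Tnfrsf17, Prdm1, Xbp1 and Sdc1 were not. The authors' deposited table thus marks Irf4, which limma's fit did not call. The deposited q-value of Tnfrsf17 was 1 beside a deposited fold of 27.7.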

How the data were processed

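Messenger RNA of 4 obstructed mouse kidney libraries was analysed (Cd248 KO replicate 1, wild type replicates 1 to 3), grouped by sample title. The submitters' processing notes name cutadapt 1.9, FastQC, HISAT2 2.0.4 and mm10, without roles; for the program and annotation behind the values, the sources used here give nothing. Deposited FPKM values were made by the authors, per the file headers. The deposited fold change (a ratio), log2 fold change, p-value and q-value are the authors' own, from a test not given in the sources used here. Low FPKM times transcript length showed no clear steps of whole reads, so depth is unknown and no counting interval is given. At the best of many step sizes tried, at most 30.1% lay near whole numbers within 0.1. Without steps 20% would do so at 1 fixed step size, and the best of many can exceed that.

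Values were fitted as log2(FPKM + 1) with limma 3.58.1 (R 4.3.3, mean-variance trend, 2 residual degrees of freedom), two-sided, for genes averaging 0.5 FPKM or more, with Benjamini-Hochberg adjustment over all 16871 tested genes at 0.05. The fit was checked on simulated data, with changes added only to genes whose wild type mean was above 2 on the log2(FPKM + 1) scale. Mzb1, Pou2af1, Derl3 and Tent5c lay below that level. Every simulated library was drawn with the wild type spread, so the check cannot bear on the spread assumed for the single knockout library. A comparison of 3 against 3 libraries was reduced to 1 against 3. Alternatives changed the pseudocount, filter, scaling, trend or wild type libraries. Gene positions are from GENCODE M21 (mm10), whose gene IDs are those of the table. The members, gene lists and motifs were chosen with earlier results of these data known. Named genes were the members and their families, the immunoglobulin constant genes, called genes of each list and up to 4 others in list order, and the 5 nearest in profile; exceptions are stated, and some genes of the lists are not reported here by name.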

Additional observations from a re-analysis of the deposited data

How the results depend on the processing

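Differences below are knockout minus wild type on the log2 scale. Of the 9 tested members, 0 changed sign under the 11 alternatives; Tnfrsf17 had a value under 4 of them (1.04 to 1.13). Mzb1 alone was called in all of them; Irf4, Prdm1, Xbp1 and Sdc1 were called in none. Calls were lost for Jchain with a pseudocount of 0.1 FPKM (5.41, adjusted p = 0.0573), with no filter (5.24, 0.0837) and with immunoglobulin genes left out of the test, an alternative chosen after seeing the data (5.24, 0.110). Pou2af1 lost its call with the last (2.66, 0.0681). Derl3 lost it with the pseudocount (2.65, 0.0644), with no filter (1.79, 0.0511), and with immunoglobulin genes left out without (1.79, 0.110) or with rescaling to the same total (1.76, 0.0602). Tent5c lost it with the pseudocount (1.32, 0.0857), no filter (1.06, 0.0681), a filter on the wild type mean (1.06, 0.0558), the same FPKM total (0.95, 0.0720), and with immunoglobulin genes left out without (1.06, 0.171) or with rescaling (1.02, 0.193). Without 1 wild type library the differences were 5.04 to 5.49 for Jchain, 2.62 to 2.71 for Pou2af1, 1.77 to 1.81 for Derl3 and 1.04 to 1.07 for Tent5c. The members called higher numbered 5, and 2, 2, 3 and 1 with the pseudocount, with no filter, and with immunoglobulin genes left out with and without rescaling, and 1 to 2 without 1 wild type library. Genes called higher numbered 108, and 33, 201, 59, 5 and 1 with the pseudocount, no filter, the wild type filter, and immunoglobulin genes left out with and without rescaling, and 41 to 72 without 1 library. Genes called lower numbered 14, and 6, 4, 24, 1 and 1 with the pseudocount, no filter, the same FPKM total, and immunoglobulin genes left out with and without rescaling, and 1 to 4 without 1 library. With 1 wild type library fewer the fit has 1 residual degree of freedom in place of 2; the cause of the losses was not tested. No paired analysis was possible because the table used here holds knockout replicate 1 only, so the groups share fewer than 2 replicate numbers. Depth is unknown, so counting error could not be set beside these values.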
